A study of Mus musculus with 8 samples.

Results

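Rn7sk, the gene of the mouse 7SK small nuclear RNA, is 1 gene, described here at the single nucleotides of its SRSF3-GFP iCLIP site. Its members are the deposited positions on the minus strand of chromosome 9 between 78023001 and 78023500 (mm9, counted from 1). They came to 117 of 769652 positions in replicate 1, 124 of 2093525 in replicate 2 and 127 of 3846902 in the merged track. This window was chosen by its measured signal, so its level, rank and compactness are given as a description, with no test.

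The series holds 8 mouse samples. Adult C57BL/6 hearts that lack SRSF3 (SRSF3flox/flox;alphaMHC-CreERT2, 3 hearts) and control hearts (alphaMHC-CreERT2, 3 hearts) were taken 5 days after the last of 3 doses of 1 mg 4-hydroxytamoxifen, which both groups received, and are not analysed here. In both, the heart muscle promoter alphaMHC drives an inducible Cre. The iCLIP group is 2 replicates of C57BL/6 neonatal cardiomyocytes (P0-1) that carried 15 µg of SRSF3-GFP modified mRNA for 48 h before 100 mJ of UV light at 254 nm. The tagged protein was therefore added to the protein the cells make, no control precipitation is among the labelled samples, and the markers of the cell type could not be read from tracks without an mm9 annotation.

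7SK is a noncoding RNA of the nucleus, made by RNA polymerase III. With HEXIM proteins it holds P-TEFb, the kinase pair CDK9 and cyclin T1 that releases paused RNA polymerase II, in an inactive complex. In human cells MePCE caps its 5′ end, HEXIM sits on the 5′ hairpin and LARP7 on the 3′ hairpin and uridine tail, and in mouse heart release of P-TEFb is known from hypertrophy. SRSF3 is a small SR protein of splicing and mRNA export, and another SR protein, SRSF2, is known to join 7SK complexes. In iCLIP the reverse transcriptase tends to stop next to the crosslinked nucleotide, and UV light at this wavelength crosslinks uridine more readily than other bases.

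The 331 nt RNA was placed on the mm9 numbering from the data, because the transcript sequence used here (GENCODE M21) belongs to another build. Its 5′ end lies at 78023440 and its 3′ end at 78023110 under this placing, and nucleotides are counted from 1 at the 5′ end. Of the cDNAs in the window, every one of replicate 1 and all but 1 of replicate 2 fell on the stretch from nucleotide 175 to 305, chr9:78023136-78023266, which is printed to show where the signal lies. Capitals mark the 10 nucleotides with the most cDNAs in replicate 1, and the second line is the RNA from 306 to 331, chr9:78023110-78023135, where no cDNA was found.
Rn7sk covered stretch: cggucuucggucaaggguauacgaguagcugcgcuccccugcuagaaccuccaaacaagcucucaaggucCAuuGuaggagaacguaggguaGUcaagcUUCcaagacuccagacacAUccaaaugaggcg
Rn7sk 3′ end: cugcauguggcagucugccuuucuuu

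The placing rests on exons of 61 neighbouring genes, with Rn7sk left out. The 201 placings compared were those that keep the covered stretch on the RNA. Of these, the one used had the highest uridine share at the crosslink positions of those exons. The share was 40.2% of 164 positions in replicate 1 and 43.1% of 555 in replicate 2. Placings more than 2 nt away averaged 25.5% ± 3.62 and 26.8% ± 2.06 (SD over placings, n = 196). Each replicate on its own gave the same placing, and shares fell on both sides of it. With the replicates pooled the share was 42.4% here, 36.8% for a placing 1 nt higher and 35.6% for a placing 1 nt lower. The choice assumes that the uridine peak lies on the deposited position itself and not beside it. On the mitochondrial plus strand the uridine share was highest at the deposited position, by a narrow margin. It was 36.4% there against 35.8% at the next highest move in replicate 1, and 35.6% against 34.1% in replicate 2. Rn7sk limited which placings were compared, but its bases had no part in the choice among them. It had uridine under 29.1% of its cDNAs in replicate 1 and 30.4% in replicate 2. Placings more than 2 nt away averaged 19.5% and 19.6%. In replicate 2 no other placing gave Rn7sk more uridine, but in replicate 1 a placing 1 nt higher gave 30.7% and one 163 nt lower gave 29.2%. The uridines of Rn7sk alone thus do not fix the placing in replicate 1, and base names at single nucleotides are uncertain to that extent.

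**Figure D1:**
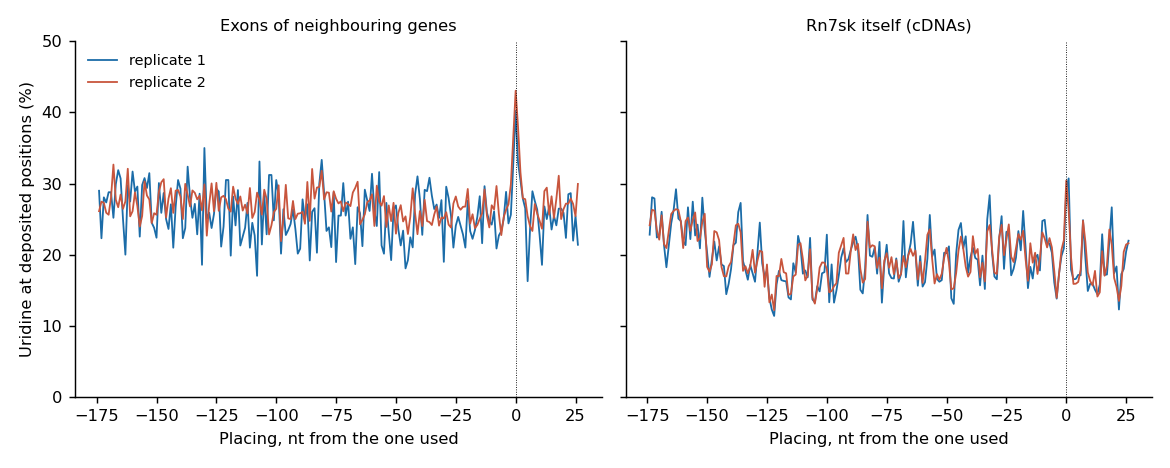
Uridine share (%) at the deposited positions for each placing of the RNA sequence, in nt from the one used, for exons of neighbouring genes (left, positions) and for Rn7sk itself (right, cDNAs), with a line for each replicate. In both replicates the neighbouring exons peak at 0, with 40.2% and 43.1%, and the Rn7sk share is high at the same place, with 29.1% and 30.4%.

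SRSF3-GFP cDNAs were dense on Rn7sk, all of them on the strand of the gene. Replicate 1 held 1767 cDNAs in the window, or 2167 per 1000000 cDNAs of the library (CPM, exact 95% Poisson interval 2067 to 2270). Replicate 2, the deeper library, held 3213, or 1426 CPM (1377 to 1476). The mean was 1796 ± 524 CPM (SD, n = 2). On the plus strand the window held 0 cDNAs in both replicates, which allows up to 0.169% of the cDNAs there in replicate 1 and 0.0933% in replicate 2, by a limit of 3 counts. With 300 nt added on either side, no further cDNA appeared.

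By the lower of its 2 CPM values, Rn7sk ranked 6th of 1093477 windows of 500 nt on either strand that held a cDNA. It ranked 2nd of 466316 in replicate 1 and 6th of 927965 in replicate 2. Of all nucleotides with more than 10 cDNAs in the whole track, 56 of 544 in replicate 1 (10.3%) and 93 of 2107 in replicate 2 (4.41%) lay in this window. Positions with a single cDNA were 6.84% of the Rn7sk positions in replicate 1 and 7.26% in replicate 2, against 96.9% and 95.9% over the whole tracks. The amount of 7SK RNA in these cells was not measured, so more SRSF3-GFP per RNA and more RNA cannot be told apart.

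The merged track sums 5 libraries, 3 of them without a label here. After the 2 replicates were taken off, these other libraries held 1333 cDNAs in the window, 1171 CPM (1109 to 1235), on 117 positions. Their cells and their protein are not given in the labels. They are shown beside the replicates as a further look at the profile and enter no test.

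Along the RNA, cDNAs began weakly near nucleotide 175, rose towards the 3′ side and ended sharply after nucleotide 296. The median cDNA lay at nucleotide 260 in replicate 1, 259 in replicate 2 and 258 in the other libraries. The interquartile range ran from 238 to 275 in replicate 1, from 235 to 275 in replicate 2 and from 237 to 275 in the other libraries. The quartile at 275 was thus the same nucleotide in each, and the first quartiles lay within a few nucleotides of each other.

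The part that holds the middle 95% of the replicate 2 cDNAs spans 102 nt, from nucleotide 192 to 293 (chr9:78023148-78023249). It held 96.5% of the cDNAs of replicate 1 (95% Wilson interval 95.6% to 97.3%), which took no part in setting it, and 95.2% of those of the other libraries (93.9% to 96.2%). Each of its nucleotides had a cDNA in replicate 2 and in the other libraries, and nucleotide 206 alone was empty in replicate 1. Counts per nucleotide there had a median of 11 cDNAs in replicate 1 (0 to 102), 22.5 in replicate 2 (3 to 135) and 10 in the other libraries (1 to 49). No gap of several nucleotides was seen inside it.

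In steps of 10 nt, 3 steps stood out within this part. Nucleotides 271 to 280 held 16.6% of the window's cDNAs in replicate 1, 18.0% in replicate 2 and 16.9% in the other libraries. Nucleotides 241 to 250 held 16.1%, 12.2% and 16.0%, and nucleotides 261 to 270 held 13.9%, 15.3% and 13.6%, in the same order of libraries. The lowest steps inside the part were at its 5′ side, where nucleotides 201 to 210 held 2.55% in replicate 1, 4.23% in replicate 2 and 3.98% in the other libraries. Reads from that side must be longer to differ from other transcripts, as given below. The part of this in the profile was not tested. The order of the highest steps differed between libraries, but in each of them the step from 271 to 280 came first.

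**Figure D2:**
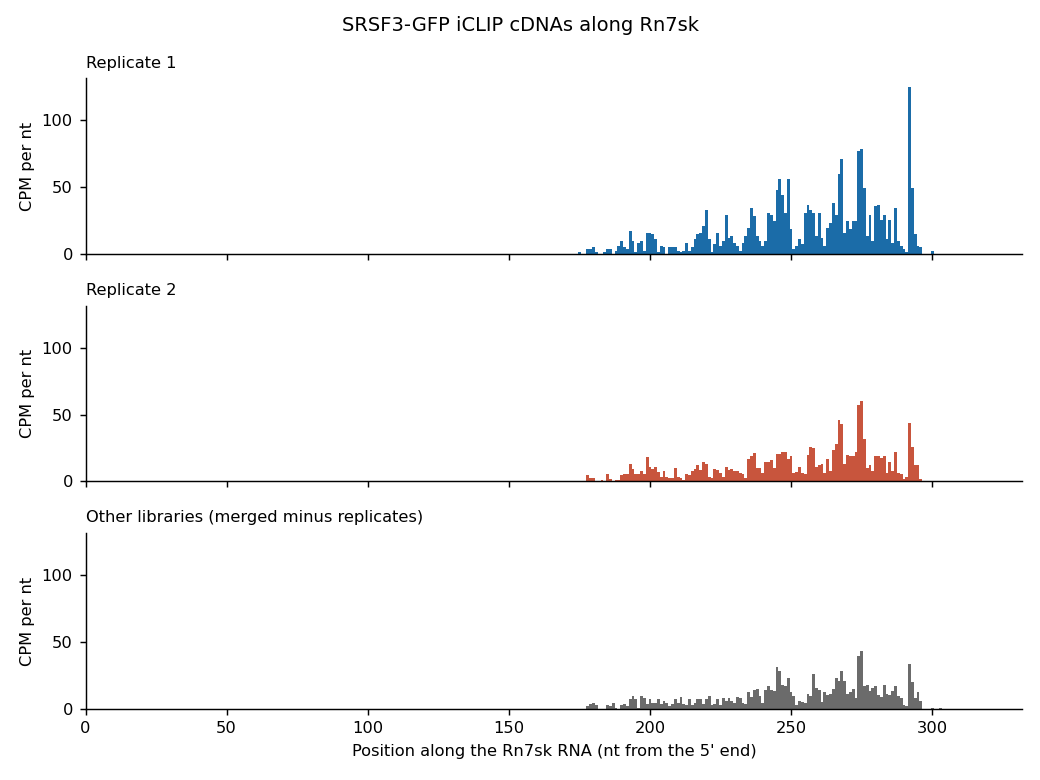
cDNAs per nucleotide along the 331 nt Rn7sk RNA, in CPM of each library, for replicate 1, replicate 2 and the other libraries of the merged track (3 panels, 1 scale; each bar is 1 nt with no error shown). Signal starts at nucleotide 175, is highest between 241 and 296 and is 0 from nucleotide 1 to 174 and from 306 to 331.

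The strongest nucleotide of replicate 1 was 292 (chr9:78023149-78023149), with 102 cDNAs in replicate 1, 99 in replicate 2 and 38 in the other libraries. It stood at a sharp edge. Nucleotide 291, the one before it, held 1 and 7 cDNAs in the replicates, nucleotide 293 held 40 and 58, and nucleotide 294 held 12 and 28. From nucleotide 295 to 297 the counts fell away, with 5 and 27, then 4 and 4, then 0 and 1. The step up from 291 to 292 was present in the other libraries as well, which held 2 and 38 cDNAs at these nucleotides.

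A pair of adjacent uridines was the strongest point of replicate 2. Nucleotide 275 held 64 cDNAs in replicate 1, 135 in replicate 2 and 49 in the other libraries, and its neighbour 274 held 63, 128 and 45. These were the 2 highest nucleotides in replicate 2 and in the other libraries, and came directly below nucleotide 292 in replicate 1. Nucleotide 276, a C, followed with 40 and 71 cDNAs in the replicates. Another adjacent pair lay a few nucleotides upstream: nucleotide 268, a U, held 58 cDNAs in replicate 1 and 96 in replicate 2, and nucleotide 267, a G, held 49 and 104.

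The remaining high nucleotides of replicate 1 clustered further upstream. Nucleotide 245 held 39 cDNAs in replicate 1 and 46 in replicate 2, nucleotide 246 held 46 and 46, and nucleotide 249 held 46 and 37. Although replicate 2 was the library with more cDNAs, it held no more, or hardly more, than replicate 1 at these positions. Of the 10 strongest nucleotides of each replicate, 7 were shared, and 245, 246 and 249 were the ones of replicate 1 that were not. The 10 strongest nucleotides of replicate 2 took 27.8% of the window's cDNAs in replicate 1 (25.8% to 30.0%), so the site was a broad plateau with peaks and not a single point.

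At the ends of the covered stretch the counts were low. At the first covered nucleotide, 175, there was 1 cDNA, from replicate 1, and at the last, 305, there was 1, from replicate 2. Outside the middle part, nucleotides 175 to 191 held 38 and 70 cDNAs, which was 2.15% and 2.18% of the window. Nucleotides 294 to 305 held 23 and 63, or 1.30% and 1.96%. The cDNA of replicate 2 outside the RNA was a single one, 4 nt upstream of the first nucleotide.

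The 5′ part of the RNA, nucleotides 1 to 174 (chr9:78023267-78023440), held 0 cDNAs in replicate 1, replicate 2 and the other libraries. A count of 0 allows up to 0.170% of the window's cDNAs in replicate 1 and 0.0934% in replicate 2, or 3.68 and 1.33 CPM, and the same limits hold for the 26 nucleotides from 306 to 331. These limits and intervals cover counting error only. The 5′ part holds the hairpin that HEXIM is known to bind in human 7SK, and the 3′ end the uridine tail of LARP7.

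The empty part is called uncovered here and not unbound, because other transcripts carry the same sequence. Gm24447, a 7SK-like transcript on chromosome 15, is identical to Rn7sk over its first 241 nt. Gm26315 shares 235 nt, from 5 to 239, Gm26035 shares 109 nt, from 121 to 229, and Gm24146 shares 79 nt, from 151 to 229. Towards the 3′ side the copies part from Rn7sk, with G242A as the first difference in Gm24447 (positions from 1 at the 5′ end, Rn7sk base first). The stretch around it is printed for both transcripts, with capitals from that nucleotide on, the Rn7sk line at chr9:78023195-78023224.
Rn7sk 217 to 246: uagaaccuccaaacaagcucucaagGUCCA
Gm24447 217 to 246: uagaaccuccaaacaagcucucaagAAUUU

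The read length needed to differ from every other reference transcript was read from exact matches on either strand. The rest of the genome and matches with mismatches were not searched, so a mapped read may need to be longer to belong to Rn7sk alone. A read that starts just after nucleotide 174, the last uncovered one, needs 68 nt before it differs from every other reference transcript, and one after nucleotide 175 needs 67 nt. After nucleotide 192, where the middle part begins, 50 nt are enough. Within that part the length was 35 nt after nucleotide 210, 27 nt after 220 and 14 nt after 234 and after 292. Between 234 and 292 it rose again in places, to 23 nt after nucleotide 256 and 19 nt after 278. From the 5′ end of the RNA across the edge of the signal this length falls steadily, by about 1 nt per nucleotide. The part of the shared sequence in that edge, and in the lower counts on the 5′ side of the middle part, was not tested.

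At the 3′ edge, from nucleotide 297 on, the rest of the RNA is found whole in another reference transcript, so no read from there to the end of the RNA is particular to Rn7sk. Nucleotides 297 and beyond held 2 cDNAs in replicate 1, 4 in replicate 2 and 2 in the other libraries. The 5 nucleotides before, 292 to 296, held 163, 216 and 91. After nucleotide 297 only 34 nt of the RNA are left, and after nucleotide 306 only 25 nt. The labels of the iCLIP samples give RNA of 80 to 200 nt, and the part of this short rest in the 3′ edge was not tested. Neither read lengths nor the handling of reads with several matches are given in the sources used here. At both ends an RNA free of SRSF3-GFP and a sequence to which reads could not be assigned therefore cannot be told apart.

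**Figure D3:**
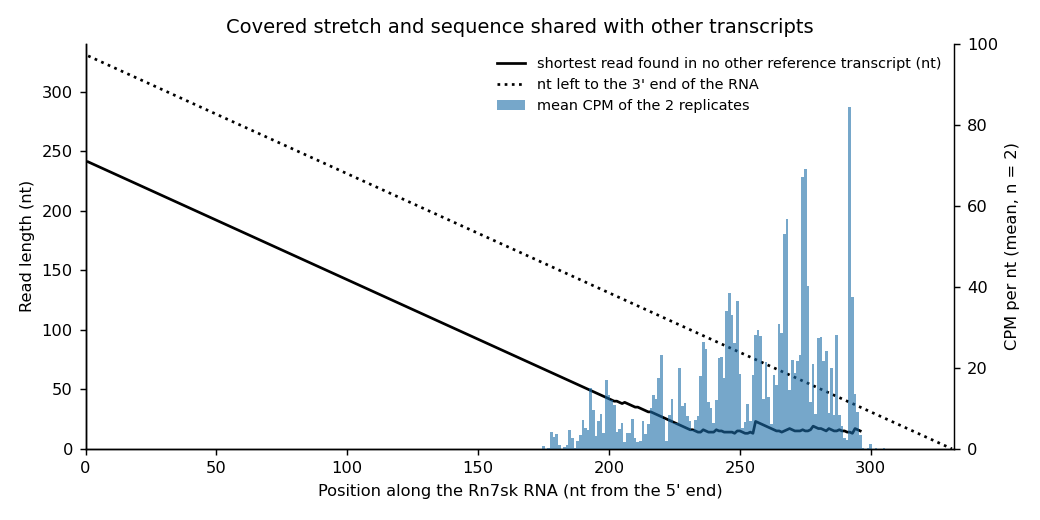
Left axis: shortest read (nt) that starts after each Rn7sk nucleotide and is found in no other reference transcript (line, absent from nucleotide 297 on), and nt left to the 3′ end (dotted). Right axis: mean CPM per nucleotide of the 2 replicates (bars, no error shown). The line falls steadily across the 5′ edge of the bars at nucleotide 175, and a few low bars lie beyond nucleotide 296.

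By base, cDNAs were shifted towards uridine. In the middle part U made up 20.6% of the nucleotides but lay under 29.5% of the cDNAs in replicate 1, 30.8% in replicate 2 and 28.2% in the other libraries. C made up 28.4% of the nucleotides and lay under 19.6%, 20.5% and 23.6% of the cDNAs. A and G were near their shares of the sequence: A made up 29.4% of the nucleotides and 29.7% and 27.5% of the cDNAs in the replicates, and G 21.6% of the nucleotides and 21.2% and 21.3% of the cDNAs. A uridine held a median of 23 cDNAs in replicate 1 and 37 in replicate 2, against 8 and 16 for a C. Since the placing was read from uridine in other genes, these shares depend on it, and the preference of UV light for uridine and that of the protein cannot be told apart.

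**Figure D4:**
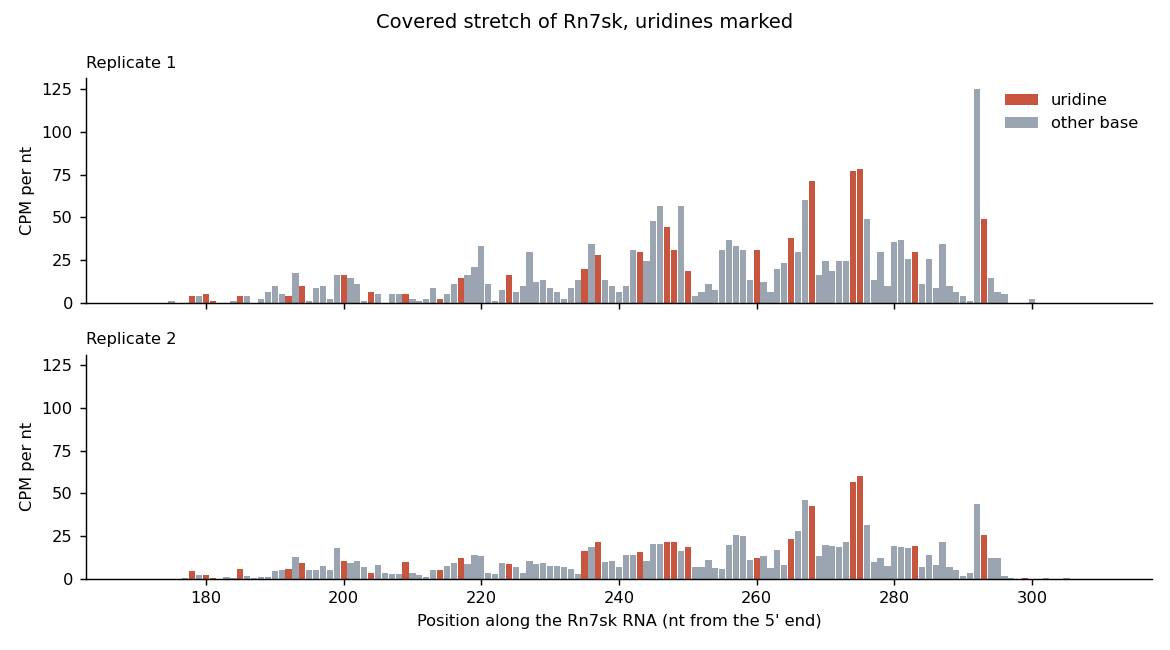
CPM per nucleotide over nucleotides 170 to 310 of Rn7sk in replicate 1 (top) and replicate 2 (bottom), on 1 scale, with uridines in red and other bases in grey (bars, no error shown). Uridines 274, 275 and 268 are among the highest bars in both replicates, and the bar at 292, an A under this placing, is the highest in replicate 1.

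A published SRSF3 motif of 5 nucleotides, with C at the second and the fifth and A or U at the others, was searched on the RNA strand in its 8 forms, and no match overlapped another. Rn7sk held 3 matches, 2 of them in the covered stretch. ACAUC at nucleotides 290 to 294 (chr9:78023147-78023151) held 158 cDNAs in replicate 1 and 196 in replicate 2, and includes the strongest nucleotide, 292. UCUUC at 178 to 182 held 11 and 21, and a further ACAUC at 25 to 29, inside the uncovered part, held 0 and 0. Of 45593 reference genes, 57.1% had at least 1 form in the central 102 nt of a transcript, so a match of this kind is common and is a description of the sequence. The 102 nt middle part of Rn7sk, the stretch of that length, held no whole match, since the ACAUC at nucleotide 292 runs to 294 and the part ends at 293.

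In a structure predicted from sequence alone (minimum free energy -112 kcal/mol), 41.2% of the middle part was unpaired, and unpaired nucleotides lay under 36.5% of the cDNAs in replicate 1, 36.4% in replicate 2 and 39.5% in the other libraries. Nucleotide 292 was predicted to pair with nucleotide 4 of the uncovered 5′ end, in a helix that joins nucleotides 1 to 7 with 289 to 295. Of the 10 strongest nucleotides, 245 and 246 were predicted unpaired. The structure in cells, with its proteins, was not measured.

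The profiles of the replicates were most alike when set nucleotide on nucleotide, among moves of up to 10 nt either way. Over the middle part, the correlation of log2(cDNAs + 1) between replicates 1 and 2 was 0.846 (Pearson's r) or 0.873 (Spearman's rho) (102 nt of 1 RNA, which are no replicates, so no p is given). With replicate 2 moved by 1 nt, r was 0.579 in one direction and 0.520 in the other, and over all moves of 1 to 10 nt it lay between 0.0981 and 0.579, with 0.408 at a move of 7 nt. The other libraries had r = 0.685 with replicate 1 and 0.732 with replicate 2 over the same nucleotides. Over all 500 nt r was 0.970, which the empty nucleotides on both sides raise.

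Replicate 1 held a larger share of its library on Rn7sk than replicate 2. The log2 ratio of replicate 1 to replicate 2 was 0.60 (95% interval for counting error 0.52 to 0.69), with 2167 CPM in replicate 1 and 1426 CPM in replicate 2. By positions in place of cDNAs it was 1.36, and with counts per position limited to 10 it was 1.15. Of the 131 nt of the covered stretch, 117 held a cDNA in replicate 1 and 123 in replicate 2, so positions were near their limit in both. More than 10 cDNAs lay on 56 nucleotides in replicate 1 and on 93 in replicate 2. Both ways of counting limit the deeper replicate 2 more, so their higher ratios are no measure of a larger excess in replicate 1. Since the window was selected on its level in these same libraries, the ratio is a description and no p is given for it. Of 1660 windows with at least 50 cDNAs, 25 passed a 5% false discovery rate by Benjamini-Hochberg adjustment of exact binomial tests, two-sided, which was 1.51% in either direction and the same 1.51% counted as higher in replicate 1. The median log2 ratio over all 1660 windows was 0.06. Since the labels do not say that the replicates came from separate cultures, and their headers name the same library identifier, the p-values of single nucleotides that follow compare 2 libraries and cover counting error only.

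At single nucleotides this difference was uneven. In the window 101 nucleotides had the minimum of 10 cDNAs over both replicates, and 25 further covered ones did not. At a 5% false discovery rate over 3692 nucleotides of the whole tracks, 6 of the 101 differed, or 5.94%, and all 6 were higher in replicate 1. Across the tracks 1.35% of the nucleotides differed in either direction and 1.22% were higher in replicate 1. Of the 101 ratios 74 were above 0 and 27 below, so 73.3% were above 0, against 58.6% of all 3692, and the median log2 was 0.41, against 0.14. Each ratio against the library totals includes the ratio of the whole selected window, 0.60. The share that differed and its direction therefore restate the window's higher level in replicate 1 and are a description.

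Nucleotide 292 had the smallest p of the 6, which its high counts favour, with 125 CPM in replicate 1 and 43.9 CPM in replicate 2 (log2 ratio 1.51, interval 1.10 to 1.92, exact binomial test, adjusted p = 3.91e-10). The others were 249, 246 and 245 of the upstream cluster, with log2 ratios of 1.78, 1.47 and 1.23, and nucleotides 255 and 227, with 2.41 and 1.47, so 255 and 249 had larger ratios than 292. Nucleotide 255 held 25 cDNAs in replicate 1 and 13 in replicate 2, the only one of the 6 with under 20 cDNAs in a replicate, and nucleotide 227 held 24 and 24. At the uridines 274 and 275, by contrast, the CPM values were 77.3 and 78.5 in replicate 1 and 56.8 and 59.9 in replicate 2, and neither passed. Two-sided adjusted p-values of the 6 ran up to 0.0417 (exact binomial test). These p-values are against the library totals and include the ratio of the whole selected window, 0.60. They therefore do not test a nucleotide apart from its window.

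To see whether the shape of the site differed and not only its height, each nucleotide was also set against the rest of its own 500 nt window. Nucleotide 292 was then the single Rn7sk nucleotide that passed, with 5.77% of the window's cDNAs in replicate 1 and 3.08% in replicate 2 (Fisher's exact test, adjusted p = 0.00688 over 3607 nucleotides, of which 0.222% passed). The other libraries held 2.85% of their window there. For nucleotide 249 the shares were 2.60% in replicate 1 and 1.15% in replicate 2, and the adjusted p of 0.0730 missed the threshold, as did that of nucleotide 255. For nucleotides 246, 245 and 227 the adjusted p-values of Fisher's exact test were 0.499, 0.772 and 0.761.

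**Figure D5:**
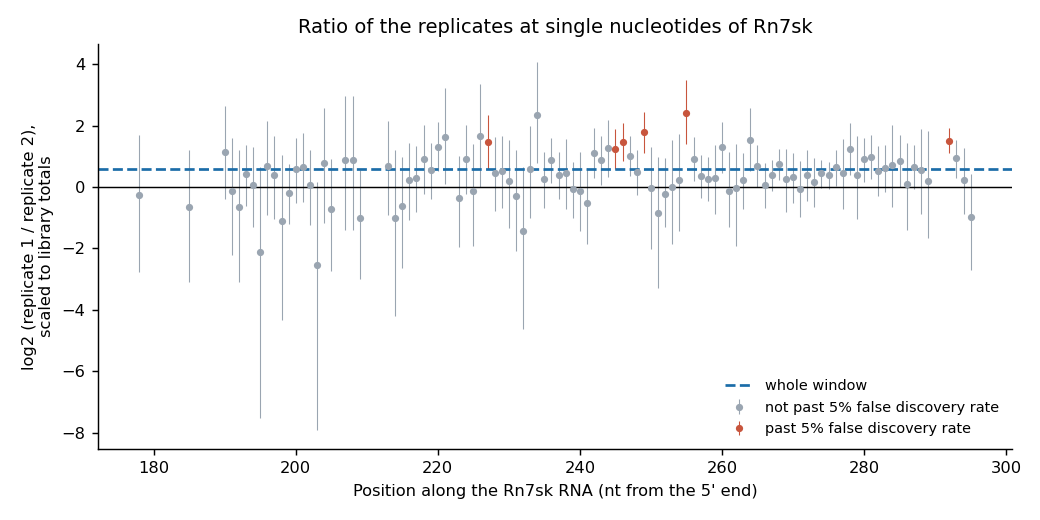
log2 ratio of replicate 1 to replicate 2, scaled to library totals, for the 101 Rn7sk nucleotides with at least 10 cDNAs (points, with 95% intervals for counting error), against position along the RNA. The 6 nucleotides past a 5% false discovery rate are red, all above 0, and the dashed line is the ratio of the whole window, 0.60. Intervals at nucleotides 178, 191, 202, 225, 239, 240, 250, 252, 253, 261, 262 and 271 were interchanged among these nucleotides and are not to be read.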

How the data were processed

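The authors deposited iCLIP tracks with a signed score per nucleotide, that counts cDNAs and is negative on the minus strand, unscaled, on mm9 with annotation Ensembl 59, per the file headers. Reads were mapped with Bowtie 0.10.1, per the submitters' processing notes. The sources used here do not give how duplicate cDNAs and reads with several matches were treated. Depth was 815414 cDNAs in replicate 1, 2253688 in replicate 2 and 4207555 in the merged track. Samples were grouped by title.

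cDNAs were counted over 500 nt windows and single nucleotides, with Python 3.11.15, numpy 2.4.6, pandas 2.3.3 and scipy 1.17.1, and divided by library totals (CPM). Windows with at least 50 and nucleotides with at least 10 cDNAs were compared between replicates by two-sided exact binomial tests, or Fisher's exact test within windows, with Benjamini-Hochberg adjustment over the whole tracks. Intervals are exact Poisson, Wilson or Clopper-Pearson at 95%. No coordinate was converted between builds. Sequences are GENCODE M21 transcripts, and structure is from RNAfold 2.7.2.

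Named nucleotides were the 10 highest of replicate 1, the first and last covered and those past the threshold; others were named after their values were seen. The window and all lists were chosen with earlier results of these data known. Alternatives changed totals, minimums, counting unit, window, placing and replicate.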

Additional observations from a re-analysis of the deposited data

How the results depend on the processing

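No paired analysis was possible because the 2 iCLIP replicates have no partner group, and none of the heart samples was analysed here. The log2 ratio of replicate 1 to replicate 2, 0.60, kept its direction under each of the 8 alternatives run, but not all of these could change it. Minimums of 20 and 200 cDNAs leave the ratio as it is, and the 10 kb window held hardly a further cDNA. By positions it was 1.36 and with counts limited to 10 it was 1.15, which both limit the deeper replicate 2 more. The ratio was 0.56 without the strongest nucleotide, 0.57 with totals from positions with 1 cDNA and 0.61 without the mitochondrial genome. Leaving out either replicate only returned the level of the other, 1426 or 2167 CPM, which is no check of the mean. Counting another unit changed the level from 1796 CPM to 106 positions per 1000000, to 768 with counts limited to 10 and to 19093 among positions with at least 2 cDNAs. Counting positions also gave 86.3% inside the middle part, a median at nucleotide 238.5 (259.5 by cDNAs, with 259 and 260 in the single replicates), 21.3% uridine and rank 90. The part for the middle 90% held 92.4% of replicate 1 and that for 99% held 99.4%; a part set in replicate 1 held 95.4% of replicate 2. The strongest 5 and 20 nucleotides of replicate 2 took 19.0% and 44.7% of replicate 1, and the 10 strongest of replicate 1 took 25.5% of replicate 2. By the share on its strongest nucleotide the window ranked 19 of 46. Differing nucleotides numbered 5 with a minimum of 5 cDNAs, 10 with a minimum of 20 cDNAs and 1 within the window, against 6 in the main setting. r over the window was 0.931 for raw cDNAs, 0.846 in the middle part and 0.852 to 0.939 with replicate 2 moved by 1 to 10 nt. A placing moved by 1 nt, added after the data were seen, gave 28.5% uridine on the high side and 21.5% on the low side; the cause of these moves was not tested. Depth left 25 covered nucleotides too thin to test.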
